A study of Mus musculus with 8 samples.

Results

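Replication-dependent histone cluster genes encode the bulk of the H1, H2A, H2B, H3 and H4 proteins on which new DNA is packed. All array probes, other than control spots, whose gene carries a name that starts with Hist1h, Hist2h, Hist3h or Hist4h were taken as members, through the accession given for the probe. That rule gave 51 probes on 47 genes out of 39429 probes. By histone type there were 6 genes of H1, 14 of H2A, 11 of H2B, 8 of H3 and 8 of H4. No member was called different between the siRNA groups and Control, and neither was any of the 22419 genes tested. The members that varied most varied between arrays of the same group, and 1 of them, the H2B gene Hist1h2bp, was lower on 1 of the slides in all 3 groups. It was the 1 member of 45 tested that was called for that slide, where 5.93% of all genes were called.

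As background, H2A, H2B, H3 and H4 form the protein core of the nucleosome, and the linker histone H1 binds where DNA enters and leaves it. The genes lie in clusters. Annotated spans of the members run from 375 bases for Hist1h4c to 37455 for Hist1h2be, with 14079 for Hist1h2bp. Most of the genes have no introns, and they are transcribed chiefly while DNA is replicated. Their mRNA normally ends in a stem-loop bound by the protein of the gene Slbp and has no poly(A) tail, although some members, Hist1h1c among them, are also known to give polyadenylated mRNA in differentiated tissue. Embryonic stem cells divide quickly and spend much of the cell cycle in S phase.

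The cells, of the pluripotent mouse embryonic stem cell line R1, were transfected with a control siRNA (Control) or with 1 of 2 siRNAs against CnAβ1, a splice variant of the calcineurin Aβ subunit encoded by Ppp3cb. In all groups they were grown as embryoid bodies for 48 h, and RNA was collected 48 h after transfection. There were 3 Control arrays, 3 of siRNA 1 and 2 of siRNA 2, all 1-colour Agilent arrays. Whether replicates came from separate cultures is not stated, and a p-value then covers just the spread among these arrays, part of which may be technical. The labels name the maker's 1-colour protocol and not the primer of the labelling step. A primer for poly(A) tails takes up mRNA without a tail poorly, and how much of each histone mRNA was labelled is not known here.

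Each value below is the log2 of a probe's processed signal less the array's own 75th percentile, and a difference is between such values unless a fold is given. Testing required a probe flagged well above background on all arrays of 1 group or more. This left 22419 genes, among them 45 of the 47 members, and a call means an adjusted p under 0.05 in limma's test with Benjamini-Hochberg adjustment over all of them. Between 68.0% and 75.1% of the 43020 spots on an array passed that flag, and precision is limited by the count of arrays. The first principal component, with 42.3% of the variance, set apart the replicate 1 arrays of the 3 groups, which share slide 1. Control replicate 2 shared slide 2 with siRNA 1 replicate 3, and the remaining 3 arrays were on slide 3. Each group kept 1 position on its slides, so group and position cannot be told apart. Ppp3cb, read by a probe that may not cover the CnAβ1 variant, had a mean of 0.63 with an SD of 0.11 over the 3 Control arrays, 0.39 with 0.21 over the 3 arrays of siRNA 1, and 0.52 with 0.14 over the 2 of siRNA 2. All 9 pluripotency markers checked were tested, and Pou5f1, which defines these cells, was at 4.50 in Control, 4.56 in siRNA 1 and 4.40 in siRNA 2. Of 8 markers of the primitive streak and mesoderm, 6 were tested, and Mixl1 and Mesp1 were not. Their median difference from Control was -0.46 for siRNA 1, with 4 of 6 lower, and -0.89 for siRNA 2, with 5 of 6 lower. For markers of primitive and visceral endoderm it was -0.27 for siRNA 1, with 7 of 9 tested markers lower and 2 higher, and -1.21 for siRNA 2, with 9 of 9 lower. No marker of either list was called, and their part in the members' values was not tested.

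The upstream sequences of 6 members show the promoter letters that the histone types do and do not share. The sequences are the 250 bases before the annotated start, 5′ to 3′ on the strand of the gene, from RefSeq (GRCm38.p6), and all 6 genes belong to the Hist1 cluster on chromosome 13. Hist1h2ah, Hist1h3d and Hist1h4k gave the highest mean signal of their types; Hist1h2bm did so for H2B. Hist1h2bp and Hist1h1c carry results described further on. Capitals mark 5 motifs on either strand, which are the CCAAT box, the octamer ATTTGCAT, the H1 box AAACACA, the H4 motif GGTCCG and the TATA motif TATAAA.
Hist1h2ah promoter, chr13:22035644-22035893, reverse strand: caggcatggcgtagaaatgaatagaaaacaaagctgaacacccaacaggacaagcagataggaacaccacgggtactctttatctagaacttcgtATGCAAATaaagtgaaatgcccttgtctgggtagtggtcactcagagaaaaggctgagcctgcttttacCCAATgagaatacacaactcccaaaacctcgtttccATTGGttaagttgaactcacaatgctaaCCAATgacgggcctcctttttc
Hist1h2bm promoter, chr13:21721794-21722043, forward strand: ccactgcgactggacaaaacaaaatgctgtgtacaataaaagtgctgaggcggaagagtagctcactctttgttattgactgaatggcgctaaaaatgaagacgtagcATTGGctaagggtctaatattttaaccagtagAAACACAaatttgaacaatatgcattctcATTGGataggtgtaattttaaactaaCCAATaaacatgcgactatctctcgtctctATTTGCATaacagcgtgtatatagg
Hist1h2bp promoter, chr13:21787238-21787487, forward strand: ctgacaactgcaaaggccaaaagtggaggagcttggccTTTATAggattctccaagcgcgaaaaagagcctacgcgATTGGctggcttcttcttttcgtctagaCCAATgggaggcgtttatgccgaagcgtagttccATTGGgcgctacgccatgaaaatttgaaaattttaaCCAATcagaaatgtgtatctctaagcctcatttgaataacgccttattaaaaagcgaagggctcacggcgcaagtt
Hist1h3d promoter, chr13:23575513-23575762, forward strand: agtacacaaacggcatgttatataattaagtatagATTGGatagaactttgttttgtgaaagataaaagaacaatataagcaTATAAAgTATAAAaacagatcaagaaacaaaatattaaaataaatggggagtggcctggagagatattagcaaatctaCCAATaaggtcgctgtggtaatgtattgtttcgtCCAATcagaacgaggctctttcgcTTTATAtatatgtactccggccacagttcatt
Hist1h4k promoter, chr13:21750554-21750803, reverse strand: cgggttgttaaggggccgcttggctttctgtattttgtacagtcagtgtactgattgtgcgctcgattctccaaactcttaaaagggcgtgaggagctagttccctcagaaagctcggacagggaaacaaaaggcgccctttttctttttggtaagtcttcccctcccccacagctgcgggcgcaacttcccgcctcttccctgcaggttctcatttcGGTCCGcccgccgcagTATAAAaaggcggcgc
Hist1h1c promoter, chr13:23738557-23738806, forward strand: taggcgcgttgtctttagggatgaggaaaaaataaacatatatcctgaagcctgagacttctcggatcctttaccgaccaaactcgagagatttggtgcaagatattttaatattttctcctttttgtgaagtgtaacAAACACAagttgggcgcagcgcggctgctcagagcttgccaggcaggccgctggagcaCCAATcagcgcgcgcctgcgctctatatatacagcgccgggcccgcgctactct

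Promoters of 42 of the 47 members were in the RefSeq table, and their motifs were counted by histone type, with no test between types. CCAAT, the box bound by the factor NF-Y, was found in 35 of 42 members against 33.8% of all 32851 promoters of this length. It was present in 14 of 14 H2A promoters, 9 of 9 of H2B and 6 of 6 of H1, and in 4 of 6 of H3 and 2 of 7 of H4. The octamer ATTTGCAT, known from H2B promoters as a site for the factor of the gene Pou2f1, was in 7 H2A and 6 H2B promoters and in none of H1, H3 or H4, against 1.6% of all promoters. In the 7 H2A promoters it lay on the reverse strand, at positions from -200 to -119 relative to the gene's start. In the 6 H2B promoters it lay on the forward strand, from -164 to -25. A position is that of the match's leftmost base in the gene's own 5′ to 3′ sequence, for either strand. AAACACA, known as the H1 box, was in 5 of 6 H1 promoters, where it began at positions from -122 to -112, and in 6.25% of all promoters. It was also in 2 of 14 H2A and 2 of 9 H2B promoters, among them that of Hist1h2bm, at -110. The promoters of Hist1h2aa and Hist1h2ba appear to share bases. Their octamer (-124 and -164) and AAACACA (-226 and -61) lie on opposite strands, as in 1 stretch read from either end. The octamer of Hist1h2ae and Hist1h2bg (-128 and -59) lies likewise. So do TATAAA (-33 and -212) and a further motif, TTTCGCGC (-52 and -195), of Hist1h2an and Hist1h2bp. Counts are per gene, so such H2A and H2B matches are not separate sites. GGTCCG, part of the H4 element that the protein of Hinfp binds, was in 6 of 7 H4 promoters, at positions from -47 to -18, in 1 of 6 H3 promoters, that of Hist1h3i, and in 6.72% of all promoters. TATAAA was in 21 of 42 members, with 4 of H1, 7 of H2A, 5 of H2B, 2 of H3 and 3 of H4, and in 12.4% of all promoters.

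The printed sequences follow these counts. Hist1h2ah and Hist1h2bm carry the octamer in opposite orientations, Hist1h1c carries AAACACA upstream of CCAAT, and Hist1h4k has GGTCCG and no CCAAT. Hist1h2bp has CCAAT on both strands and no octamer. In all, 15 motifs were searched on both strands, and the 5 that are marked were chosen after the counts were seen. Of the others, TATAAAA, which contains TATAAA, was in 10 members (4.98% of all promoters) and TTTGCAT, contained in the octamer, in 14 (4.12%). GGGCGG was in 15 members (32.7%), TCAATC in 5 (6.43%), CCATGCC in 5 (3.53%), TTTCGCGC in 4 (0.256%), TTTCGCGCC, which contains the last, in 2 (0.1%), and a longer H4 motif that ends in TCAATC in 1 (0.0152%). TTTGGCGC (0.417%) and AACAGTG (3.36%) were in 0 members. A match describes these letters in this window and is not evidence of a bound site.

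Over all types, the first question was whether CnAβ1 knockdown moved the members together. Against Control, 0 of 45 members were called for the mean of both siRNAs, and 0 of 22419 genes were (0% called in each siRNA comparison). At an unadjusted p under 0.05 there were 0 members, against 804 of all genes (3.59%). The median difference of the members was -0.01, with 19 higher and 26 lower, and that of all genes was 0.01. For siRNA 1 alone the median was -0.04, with 15 higher and 30 lower, and 0 members had an unadjusted p under 0.05 against 3.5% of all genes. For siRNA 2 alone it was 0.09, with 31 higher and 14 lower, and again 0 members against 3.35%. These comparisons share the Control arrays. The 95% interval of a member's difference for both siRNAs reached a median of 0.34 to either side on the log2 scale. The narrowest reached 0.17, for Hist3h2ba, and the widest 1.62, for Hist2h3c2, so the smallest detectable shift differed between members. With the slide as a block, 0 members were called in any siRNA comparison and the median reach for both siRNAs was 0.29. Under that fit 1 member, Hist2h2ab, had an unadjusted p under 0.05 for siRNA 1 against Control, against 4.12% of all genes. For siRNA 2 against siRNA 1 there were 4, which were Hist2h2ab, Hist1h2ab, Hist2h2bb and Hist1h4d, against 4.34% of all genes. No member had its 5 siRNA arrays all above or all below the 3 Control arrays, where 3.44% of all genes did, and none had its siRNA 1 arrays clear of the Controls, where 7.91% did. For siRNA 2, 3 members had both arrays above and 2 had both below all Controls, as described by type.

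**Figure D1:**
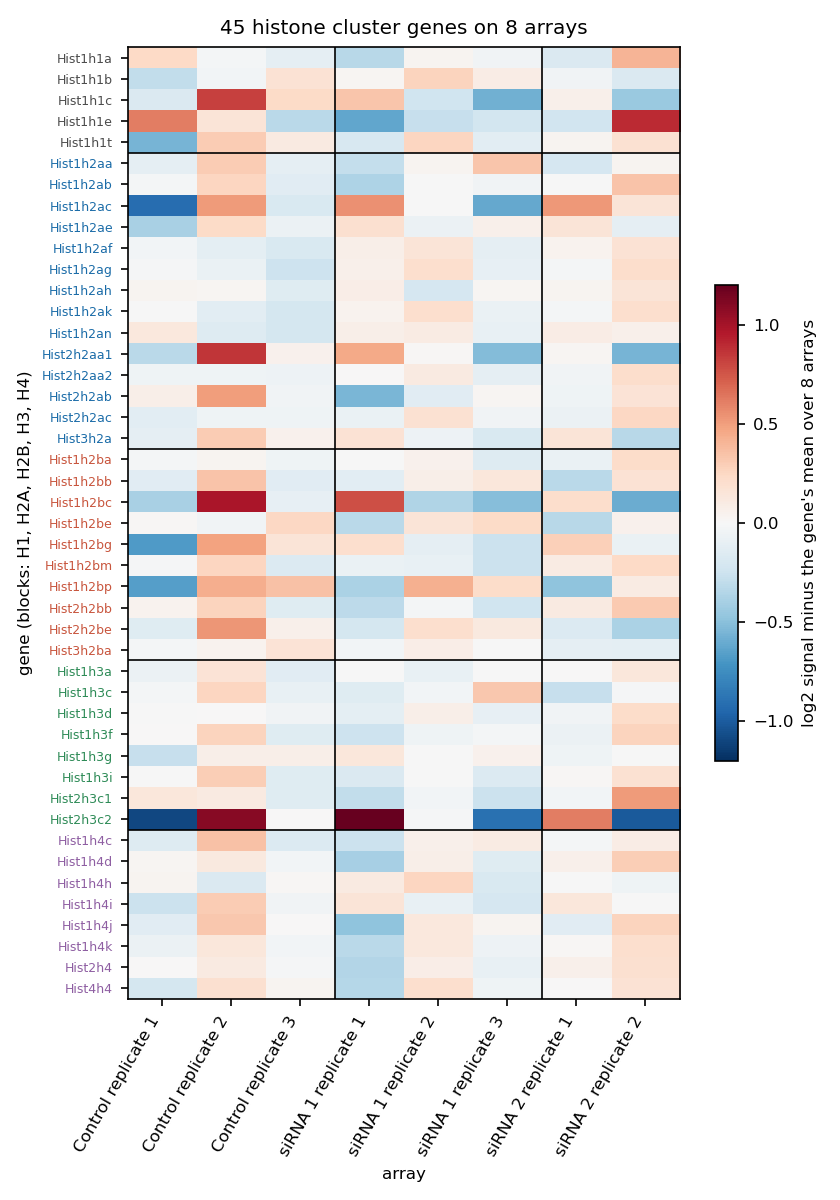
Signal of each tested member on each array, as the log2 value minus the mean of that gene over the 8 arrays (colour scale, log2), with genes in rows by histone type and arrays in columns by group. The strongest colours lie in a few rows, such as Hist2h3c2 and Hist1h2bc, and alternate within groups, while most rows are pale throughout.

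Pairs of arrays on the same slide gave no single direction. On slide 1 the median member difference was 0.00 for siRNA 1 against Control and 0.03 for siRNA 2. On slide 2 it was -0.21 for siRNA 1, with 36 of 45 members lower, and the median of all genes there was -0.00. On slide 3 it was 0.11 for siRNA 1 and 0.26 for siRNA 2, with 32 and 31 members higher. Each of these values sets 1 array against 1 array and has no error.

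H2A genes had the largest median difference for both siRNAs, 0.11, with 9 of 14 higher and 0 called. That direction depended on the scaling: the median was -0.02 after quantile normalization and -0.01 after normexp correction with quantile normalization. The probes of 7 H2A genes were among the 100 brightest on every array, and all 7 genes were among those higher. The part of this brightness in the median was not tested. Hist1h2af, an H2A gene of the Hist1 cluster, had the smallest unadjusted p of all members for both siRNAs against Control. Its values were 7.94, 7.86 and 7.79 on the Control arrays, 8.04, 8.13 and 7.87 on those of siRNA 1, and 8.02 and 8.15 on those of siRNA 2. The lowest siRNA 1 array lay among the Controls, and both siRNA 2 arrays lay above them. The difference for both siRNAs was 0.18 (95% interval -0.02 to 0.39), or 1.14-fold, with an unadjusted p of 0.0727 and an adjusted p of 1.00 in limma's test.

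Hist1h2ah, the H2A gene whose promoter is shown above, was at 8.24, 8.22 and 8.06 in Control, 8.29, 8.0 and 8.23 in siRNA 1, and 8.24 and 8.36 in siRNA 2. The siRNA 1 arrays held both values above and values below the Control arrays, and the difference for both siRNAs was 0.06 (95% interval -0.16 to 0.28). Hist2h2aa2, of the Hist2 cluster on chromosome 3, stayed between 7.87 and 7.88 on the 3 Control arrays. It was at 7.93, 8.04 and 7.82 in siRNA 1 and at 7.89 and 8.14 in siRNA 2. For siRNA 2 alone, Hist1h2ah, Hist1h2af and Hist2h2aa2 had both arrays above all Controls, where 8.75% of all genes did so, and none was called. The gap between siRNA 2 replicate 1 and Control replicate 1 was 9.9e-05 for Hist1h2ah, in effect a tie. It was 0.016 for Hist2h2aa2 and 0.077 for Hist1h2af.

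Hist1h2ak was read by 2 probes that gave unequal values. On the brighter it was at 7.94, 7.81 and 7.73 in Control, 7.99, 8.14 and 7.86 in siRNA 1, and 7.91 and 8.15 in siRNA 2. The lowest array of each siRNA lay within the Control range. The brighter probe gave a difference of 0.19 with a standard error of 0.10 for both siRNAs, and the other gave 0.03 with a standard error of 0.10. The coding sequences of H2A genes are nearly the same, the files hold no probe sequences, and which copies each probe reads is not known here. Values of single members are therefore uncertain as to the copy, for H2A and for the other core types. Hist2h2ab had the most negative difference among the H2A genes for siRNA 1. It was at -3.78, -3.35 and -3.89 in Control and at -4.39, -3.98 and -3.82 in siRNA 1, with -3.90 and -3.68 in siRNA 2. All 3 groups overlapped, and the difference for siRNA 1 was -0.40 (95% interval -0.86 to 0.06).

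H2B genes had a median difference of -0.07 for both siRNAs, with 8 of 10 tested genes lower and 0 called. Under quantile normalization the median was -0.08 and under normexp -0.06. Hist3h2ba, in the small Hist3 cluster on chromosome 11, was at 0.37, 0.44 and 0.56 in Control, 0.36, 0.48 and 0.40 in siRNA 1, and 0.29 and 0.28 in siRNA 2. Both siRNA 2 arrays lay below every other array. The difference for siRNA 2 against Control was -0.17 (95% interval -0.39 to 0.04), and it was not called. Hist2h2be was at -5.35, -4.68 and -5.15 in Control, -5.42, -5.01 and -5.09 in siRNA 1, and -5.37 and -5.58 in siRNA 2. Its siRNA 2 arrays also lay below the 3 Controls, by a narrow gap, and the difference was -0.42 (95% interval -0.93 to 0.09). The processed signal of Hist2h2be lay between 17.7 and 32.9, about as dim as that of Hist1h2ac (16.3 to 43.9). It was flagged well above background on all 8 arrays. Of all genes, 8.19% had both siRNA 2 arrays below all Controls.

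Between the siRNAs, Hist2h2bb, an H2B gene of the Hist2 cluster, had the smallest unadjusted p. It was at 1.89, 2.11 and 1.71 in Control, 1.54, 1.83 and 1.61 in siRNA 1, and 1.96 and 2.17 in siRNA 2. Both siRNA 2 arrays exceeded the siRNA 1 arrays, and the Controls overlapped both groups. Besides Hist2h2bb, the members Hist1h2bm, Hist1h3a and Hist1h3i had siRNA 2 wholly above siRNA 1, where 7.26% of all genes did, and Hist1h1b and Hist3h2ba wholly below, where 11.9% did. The difference between siRNA 2 and siRNA 1 was 0.40 (95% interval 0.04 to 0.76), or 1.32-fold, with an unadjusted p of 0.0329 and an adjusted p of 1.00 in limma's test. Hist1h2bm, the brightest H2B member, was at 2.51, 2.78 and 2.36 in Control, 2.45, 2.44 and 2.27 in siRNA 1, and 2.62 and 2.77 in siRNA 2. Its siRNA arrays were ordered as those of Hist2h2bb, with a difference of 0.31 (95% interval -0.02 to 0.64) and no call.

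H3 genes had a median difference of -0.02 for both siRNAs, with 3 of 8 higher. Hist2h3c1 was at 2.64, 2.61 and 2.36 in Control, 2.21, 2.47 and 2.24 in siRNA 1, and 2.47 and 3.01 in siRNA 2. Its highest value was siRNA 2 replicate 2, while siRNA 2 replicate 1 and siRNA 1 replicate 2 both rounded to 2.47. For siRNA 2 against siRNA 1 the difference was 0.43 (95% interval 0.00 to 0.86), with an unadjusted p of 0.0482 and an adjusted p of 1.00 in limma's test. Hist2h3c1 and Hist2h2bb were the 2 members under 0.05 unadjusted in that comparison, in which 3.36% of all genes were. Hist1h3d, the H3 gene with the brightest probe, was steadier: 5.48, 5.48 and 5.44 in Control, 5.36, 5.55 and 5.38 in siRNA 1, and 5.44 and 5.70 in siRNA 2. Its difference for both siRNAs was 0.03 (95% interval -0.17 to 0.24).

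H4 genes were at a median difference of -0.01 for both siRNAs, with 3 of 8 higher, and none of the 8 had a range of 2-fold over the arrays. For siRNA 1 alone 7 of 8 were lower, and for siRNA 2 alone 8 of 8 were higher, by at most 0.14, with 0 called. The count for siRNA 2 was 7 of 8 under quantile normalization and in the authors' deposited value table. It rests on the brightest probe of each gene, and the probes of Hist1h4i disagreed in sign, with 0.06 (standard error 0.18) for the brighter and -0.10 (standard error 0.16) for the other. Hist1h4k was at 6.22, 6.43 and 6.26 in Control, 5.97, 6.42 and 6.24 in siRNA 1, and 6.31 and 6.50 in siRNA 2. The lowest value was siRNA 1 replicate 1, and the other siRNA 1 arrays lay within the Controls. The fold for both siRNAs was 1.00 (95% interval 0.82 to 1.22). Hist4h4, the sole member of the Hist4 cluster on chromosome 6, had a difference of 0.01 (95% interval -0.34 to 0.36).

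Among the linker histones, 5 of 6 H1 genes were tested and had a median difference of -0.04 for both siRNAs, with 2 higher and 3 lower. Hist1h1d was not well above background on any array, and the H2B gene Hist1h2bq was so on 3 of 8 arrays, so neither was tested. Hist1h1b, the H1 gene with the brightest probe, was at 3.81, 4.08 and 4.28 in Control, 4.14, 4.38 and 4.20 in siRNA 1, and 4.07 and 3.94 in siRNA 2. The siRNA arrays lay inside the Control range but for siRNA 1 replicate 2. Its difference for both siRNAs was 0.07 (95% interval -0.22 to 0.35). Hist1h1c had the largest negative difference of any member for both siRNAs, -0.47, with a wide 95% interval of -1.15 to 0.21, and was not called. It was at -1.01, -0.01 and -0.59 in Control, -0.50, -1.07 and -1.41 in siRNA 1, and -0.77 and -1.27 in siRNA 2. Control replicate 2 alone held the top value, and without it the difference for both siRNAs was -0.21. The testis-type members Hist1h1t, Hist1h2aa and Hist1h2ba, known from male germ cells, were all tested, with a median difference of 0.03 and 0 called.

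**Figure D2:**
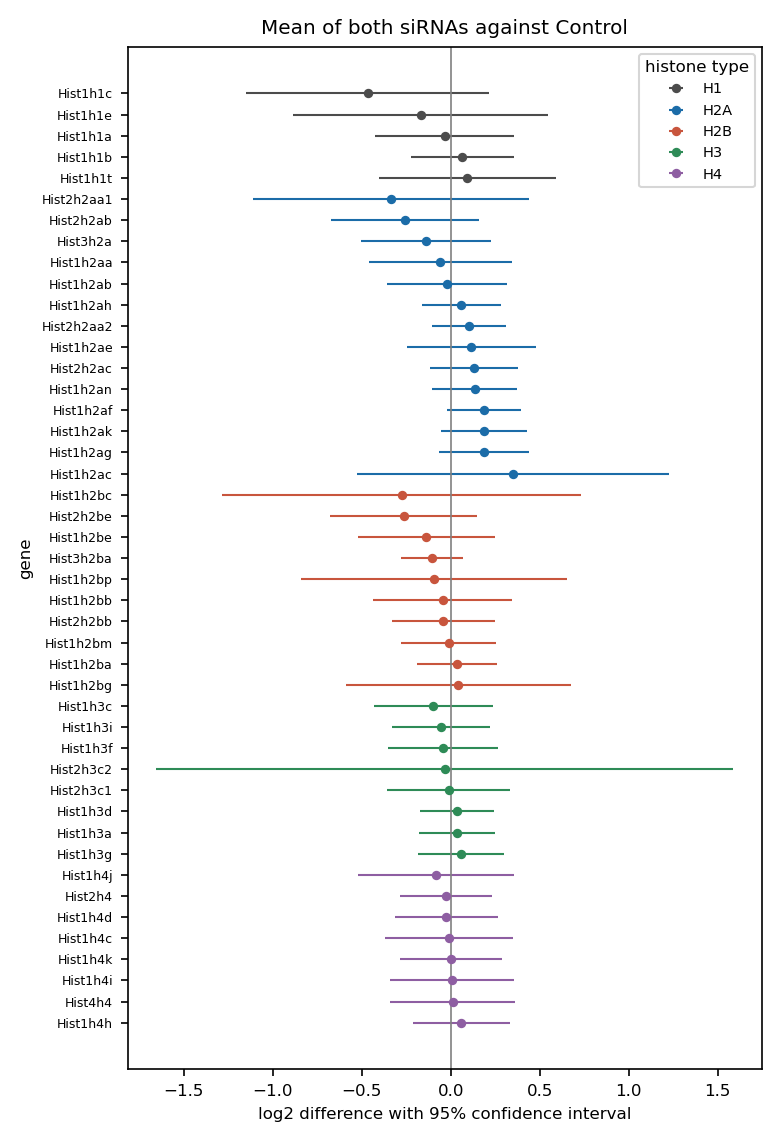
Difference between the mean of both siRNAs and Control for each tested member (points, log2) with its 95% confidence interval from limma (lines), coloured by histone type. Every interval crosses 0, and the widest belongs to Hist2h3c2.

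Some members varied strongly across the arrays without following the groups, in a share close to that of all genes under the main scaling. Of 45 members, 9 had a range of at least 2-fold over the 8 arrays (20.0%), against 16.2% of all genes, a limit chosen after the values were seen. Just inside that limit was Hist2h2ab at 2.07-fold, and just outside were Hist2h2be at 1.87-fold and Hist1h1t at 1.81-fold. The median range was 1.51-fold for the members and 1.41-fold for all genes. At the narrow end, 22 members stayed under 1.5-fold, where 59.1% of all genes did. After normexp correction with quantile normalization, 5 of 45 members had a range of at least 2-fold, against 2.74% of all genes.

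Hist2h3c2, an H3 gene of the Hist2 cluster, had the widest range, 5.26-fold. It was at -4.64, -2.45 and -3.54 in Control, -2.24, -3.55 and -4.43 in siRNA 1, and -2.93 and -4.55 in siRNA 2. Each group thus held a high and a low array, and the groups overlapped throughout. Hist1h2bc, an H2B gene, ranged 2.98-fold, from 0.49, 1.86 and 0.79 in Control over 1.66, 0.52 and 0.38 in siRNA 1 to 1.10 and 0.29 in siRNA 2. Its high arrays were again Control replicate 2 and siRNA 1 replicate 1, followed by siRNA 2 replicate 1. Hist2h2aa1, an H2A gene, was at -1.99, -0.82 and -1.62 in Control, -1.22, -1.66 and -2.20 in siRNA 1, and -1.65 and -2.23 in siRNA 2, a range of 2.66-fold. Control replicate 2 and siRNA 1 replicate 1 were highest here too. Hist1h1c, whose values stand above, had the same pair of arrays on top.

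Hist1h2ac, an H2A gene near background, ranged 2.76-fold and was well above background on 7 of 8 arrays. It was at -5.82, -4.40 and -5.09 in Control, -4.36, -4.91 and -5.52 in siRNA 1, and -4.39 and -4.75 in siRNA 2. Control replicate 1 was lowest, and Control replicate 2, siRNA 1 replicate 1 and siRNA 2 replicate 1 were nearly level at the top. Hist1h2bg, an H2B gene, was at -4.25, -3.10 and -3.42 in Control, -3.37, -3.68 and -3.83 in siRNA 1, and -3.29 and -3.65 in siRNA 2. Control replicate 2 was again highest and Control replicate 1 lowest. Hist1h1e, a linker histone gene, ran another way, with 4.27, 3.81 and 3.33 in Control, 3.03, 3.38 and 3.44 in siRNA 1, and 3.42 and 4.55 in siRNA 2. Its highest array was siRNA 2 replicate 2 and its lowest siRNA 1 replicate 1, and no group stood apart.

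**Figure D3:**
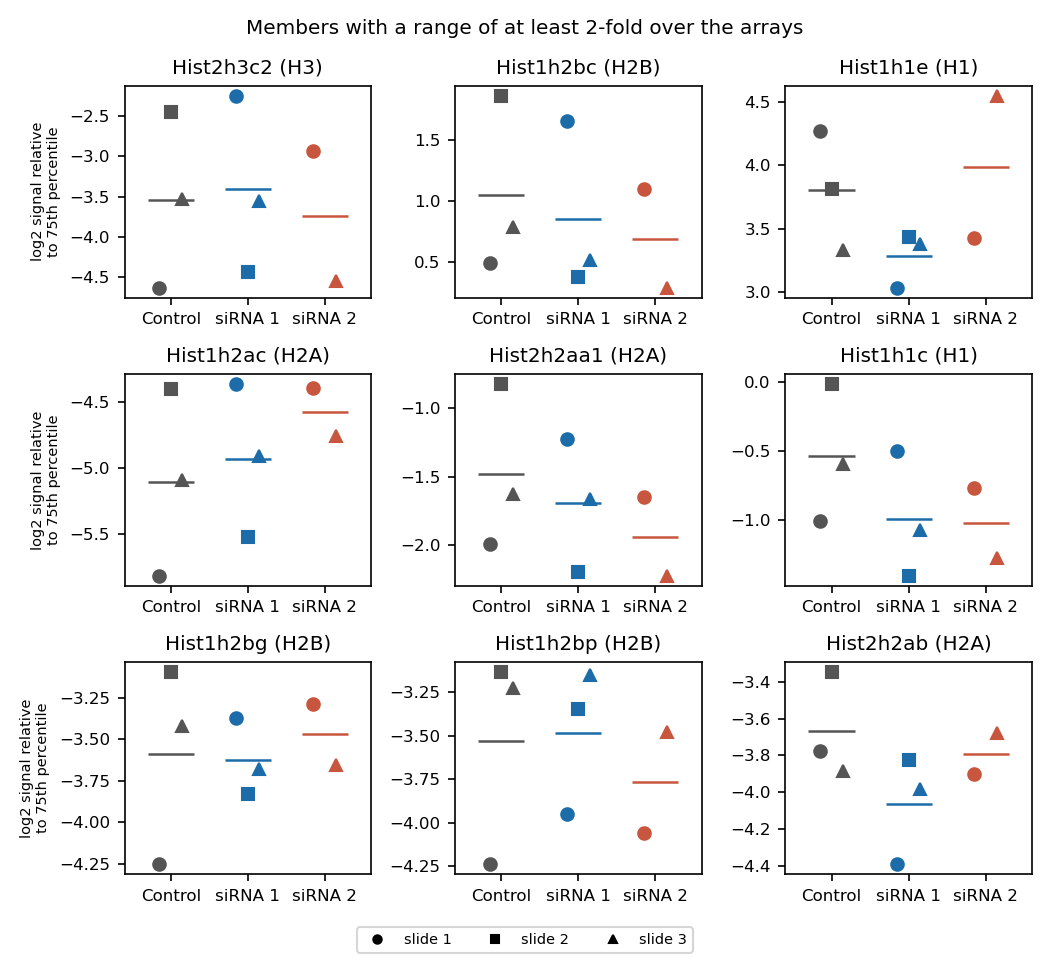
Log2 signal relative to the 75th percentile for the 9 members with a range of at least 2-fold, by group, with 1 point per array, a bar at the group mean and marker shape for the slide. In Hist2h3c2, Hist1h2bc, Hist2h2aa1 and Hist1h1c the highest points are Control replicate 2 and siRNA 1 replicate 1; in Hist1h2bp the 3 slide 1 points are the lowest.

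The median of the 9 members, each centred on its own mean, was 0.51 on Control replicate 2 and 0.33 on siRNA 1 replicate 1, against -0.39 on Control replicate 1 and -0.51 on siRNA 1 replicate 3. These 9 do not stand for the whole set. Over all 45 members it was 0.23 on Control replicate 2 and -0.08 on siRNA 1 replicate 1. The 36 members with a range under 2-fold were lowest on siRNA 1 replicate 1, at -0.12. The same median over 8 of 9 fibroblast markers lay between -0.00 and 0.28 in Control, between -0.34 and 0.18 in siRNA 1, and between -0.21 and 0.06 in siRNA 2. It was highest on Control replicate 2 and siRNA 1 replicate 1 and lowest on siRNA 1 replicate 3, as for the 9 members. On Control replicate 1 it was the third highest, at 0.13, where the 9 members were low. Of the fibroblast list Postn was not tested. The same median over the 9 pluripotency markers was also highest on siRNA 1 replicate 1 and Control replicate 2, at 0.27 and 0.11. On Control replicate 1 it was low, at -0.14. It was lowest on siRNA 2 replicate 2, at -0.15, and was -0.02 on siRNA 1 replicate 3, where the 9 members were lowest. The part of fibroblasts or of any other cell type in the members' range was not tested. The list of S phase and DNA replication genes stayed between -0.03 and 0.04 on the 8 arrays.

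The slides were compared within groups because slide 1 stood apart over all genes. Hist1h2bp was at -4.24 in Control, -3.95 in siRNA 1 and -4.06 in siRNA 2 on slide 1. On the other slides it was at -3.13 and -3.23 in Control, -3.15 and -3.35 in siRNA 1, and -3.48 in siRNA 2. All 3 slide 1 arrays lay below all 5 others, whatever the group. The difference was -0.80 (95% interval -1.06 to -0.54), or 0.575-fold, with an adjusted p of 0.00851 in limma's test. It was the 1 member called among 45, where 5.93% of all genes were called, 5.25% lower and 0.678% higher. The call held in each of the 21 alternatives run, with values between -0.88 and -0.37. The smallest difference, -0.37, came after normexp correction with quantile normalization. The probe was dim, with a processed signal of 49.0 to 110.2, where the median spot of an array was at 76.2 to 96.0. It was flagged well above background on all 8 arrays.

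Hist1h4j, an H4 gene, was at 1.38, 1.03 and 1.38 on the slide 1 arrays of Control, siRNA 1 and siRNA 2. On the other slides it was at 1.83 and 1.51 in Control, 1.64 and 1.55 in siRNA 1, and 1.78 in siRNA 2, so the slides did not overlap. The difference was -0.42 (95% interval -0.67 to -0.18) with an adjusted p of 0.0754 in limma's test, and was not called. Hist4h4 differed by -0.32 and Hist1h2be by -0.32, with adjusted p of 0.152 and 0.229 in the same limma test. Hist1h2bp, Hist1h4j, Hist1h2aa and Hist2h2ac had every slide 1 array below every other array, where 10.5% of all genes did. Unadjusted p was under 0.05 for 7 members, all lower on slide 1, against 15.5% of all genes.

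Over all 45 members the median slide difference was -0.12, with 34 lower and 11 higher, and that of all genes was -0.02. By type it was -0.21 for H4, -0.17 for H1, -0.13 for H2B, -0.10 for H3 and -0.01 for H2A. With each array scaled to its median instead, the members' median became 0.01 and that of all genes 0.11. The members lay 0.10 below all genes under both scalings, and 0.03 below them after normexp correction with quantile normalization. The order of the types also depended on the processing. With median scaling the H4 median was -0.08 and that of H1 -0.03. After normexp correction with quantile normalization the H4 median was -0.01, with 4 of 8 genes higher, and that of H1 was -0.21. The neuroectoderm marker Sox1 was also lower on slide 1, with a difference of -1.25 and an adjusted p of 0.0016 in limma's test, as 1 of 5 genes of that list, and its part in the members' values was not tested.

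**Figure D4:**
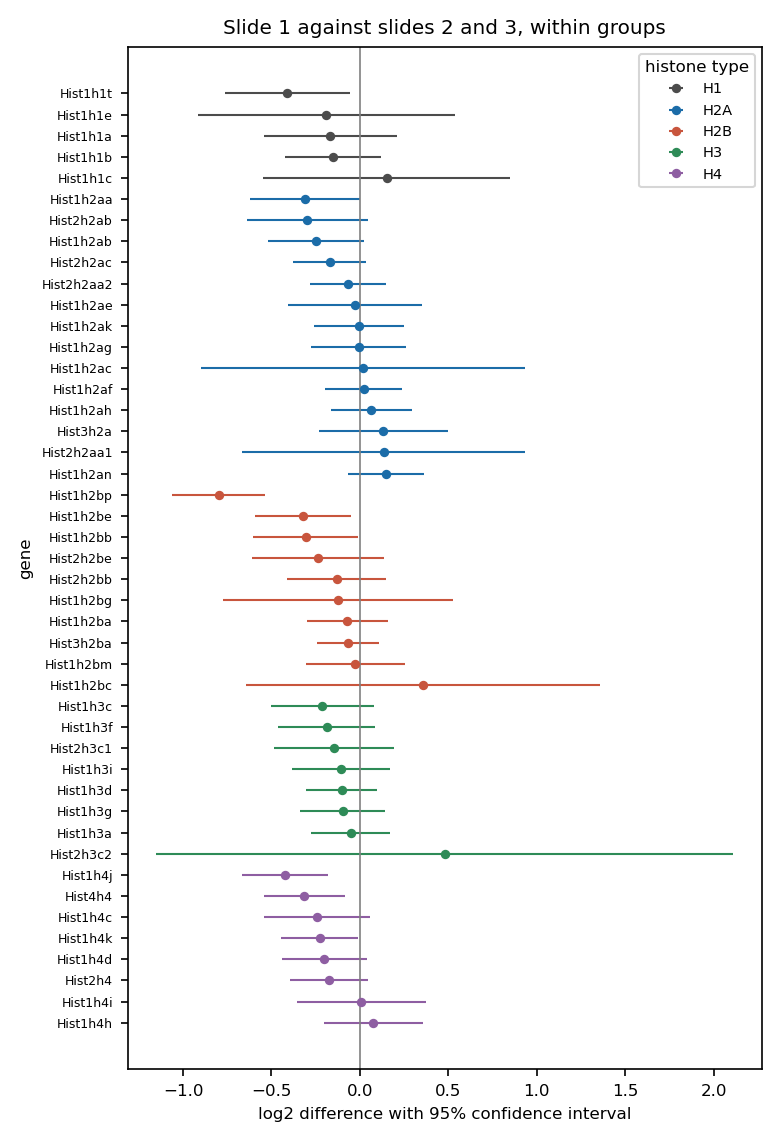
Difference between slide 1 and the other slides within groups for each tested member (points, log2) with its 95% confidence interval from limma (lines), coloured by histone type. Hist1h2bp at -0.80 lies farthest from 0, and most points of the H4 genes lie below 0 in this scaling.

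Genes that make, process and carry histones were followed in lists beside the members, and 0 were called in any siRNA comparison. Of 28 genes of S phase and DNA replication, 27 were tested, with a median difference of -0.00 for both siRNAs, 13 higher and 14 lower. Pcna, the sliding clamp of replication, differed by 0.03 (95% interval -0.17 to 0.23), and Mcm6, of the replicative helicase, by 0.07 (95% interval -0.09 to 0.22). Of 23 genes of histone transcription and mRNA 3′ end processing, 22 were tested, with a median of 0.00. Slbp, whose protein binds the stem-loop, had a mean of 1.38 with an SD of 0.14 over the Control arrays, 1.45 with 0.02 over those of siRNA 1, and 1.36 with 0.01 over those of siRNA 2. Npat, the coactivator of these genes in S phase, was not tested.

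Histone chaperones, which carry histones to DNA, had a median difference of 0.03, with 15 of 19 higher. Nap1l1, a carrier of H2A and H2B, had the smallest unadjusted p of that list for both siRNAs and differed by 0.16 (95% interval -0.03 to 0.36). Variant histones, made outside S phase as well, had 14 of 21 genes tested, with a median of -0.07, 4 higher and 10 lower. H2afy, which encodes macroH2A, differed by -0.22 (95% interval -0.47 to 0.04), and H2afz, of the variant H2A.Z, by 0.09 (95% interval -0.08 to 0.26). All these intervals cross 0.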

How the data were processed

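Total RNA of 8 samples was measured on 1-colour Agilent arrays. Per the file headers, the authors extracted the spots with Agilent Feature Extraction 10.7.3.1, and the deposited scanner files hold processed signal as intensity, already corrected for background, and the spot flags used here. A deposited value table holds log2 values. Set against the scanner files, its columns follow log2 signal minus the 75th percentile with each probe centred, but those named Control 2 and Control 3 follow each other's scanner file (r of -0.05 with their own). It served as an alternative.

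Control and outlier spots were left out, spots of a probe were averaged as log2, and 26424 of 39429 probes were named through RefSeq accessions (GRCm38.p6); 13005 are unnamed here. Its newer symbols were set back to the Hist names that it lists as synonyms, and 70 such genes are in that table. Each gene was read by its brightest probe. One limma 3.58.1 fit in R 4.3.3 took all 8 arrays over 3 groups (5 residual and 2.09 prior degrees of freedom), with a slide 1 term added for the slide comparison. It was tested on simulated data. Full values were given for the brightest member of each type and, in each comparison, for members called or with the 2 smallest p in each direction. Hist2h3c2, Hist1h2bc, Hist2h2aa1, Hist1h2ac, Hist1h2bg, Hist1h1e, Hist2h2aa2, Hist1h4j and Hist4h4 were added after their values were seen. The members and gene lists were chosen with earlier results of these data known. Alternatives were other scalings, background correction with an offset of 50, the deposited table, other filters, probe rules and variance models, blocks, and each array left out. Python 3.11.15 with pandas 2.3.3 read the files, and matplotlib 3.10.9 drew the plots.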

Additional observations from a re-analysis of the deposited data

How the results depend on the processing

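No member was called in a siRNA comparison under any of the alternatives run. The members' median stayed at or above 0.00 for siRNA 2 against Control (0.00 to 0.16) and above it for siRNA 2 against siRNA 1 (0.04 to 0.16). It changed sign under 2 of 23 alternatives for siRNA 1 against Control (-0.17 to 0.06) and under 6 of 22 for both siRNAs (-0.06 to 0.08). The slide difference had a median of 0.013 with median scaling. Between slides, 2 members were called with normexp (Hist1h2ab besides Hist1h2bp), 2 with a variance trend and robust estimation (Hist1h4j), 3 with array weights (Hist1h4j and Hist1h2be), and 1 to 2 with an array left out (2 without Control replicate 3). Members with a range of at least 2-fold numbered 5 with normexp, when 2.74% of all genes had one, and 6 to 9 with an array left out. They were 6 without Control replicate 2, when Hist1h1c, Hist1h2bg and Hist2h2ab fell under the limit. These counts under other settings were chosen after seeing the data, and the causes were not tested. With the replicate number as a block, the median was -0.03 for both siRNAs and -0.10 between slides, and Hist1h2bp was at -0.79 (adjusted p 0.031 in limma's test). Arrays that share a number correlated in their deviations between 0.327 and 0.698 in the 4 pairs on 1 slide. In the 3 pairs on different slides the correlation lay between -0.042 and 0.05. Those 3 pairs each hold Control 2 or Control 3, whose deposited columns follow each other's scanner file. If those files are exchanged, number and slide coincide, so slide and number cannot be told apart here. With the slide as a block, the members' median was 0.01 for both siRNAs, -0.04 for siRNA 1 and 0.11 for siRNA 2 against Control, and 0.09 between the siRNAs. Signal over background limits Hist1h1d, Hist1h2bq and Hist1h2ac, and Hist2h2be was about as dim as Hist1h2ac. Hist1h2bp, the member called between slides, was brighter than these but also read by a dim probe.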
